A study of Mus musculus with 24 samples.

Results

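The open chromatin of SOX9-induced cells in culture was compared with and without AFOS, a dominant-negative FOS. To this end the peak list of epidermal stem cells (EpdSCs) induced for SOX9 was set against that of EpdSCs induced for SOX9 together with AFOS. The WT-SOX9 list held 52278 ATAC-seq peaks and the SOX9+AFOS list 49458. Peaks of either list that overlapped by at least 1 bp were merged, which gave 65329 regions. The 12 lists of the series held 708357 peaks in all before any merging. Of the merged regions 16747 came from the WT-SOX9 list only, 13154 from the SOX9+AFOS list only and 35428 from both. Each list was called on the merged reads of 2 samples of keratinocytes from mouse back skin (CD1, male), 4 of the 24 samples of the series.

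Both groups were cultured with doxycycline (DOX) at 1 µg per ml. The labels gave the genotype of the WT-SOX9 cells as K14rtTA with TRE-myc-Sox9 and that of the SOX9+AFOS cells as K14rtTA with TRE-myc-Sox9 and TRE-FLAG-AFOS, so that the Krt14 promoter drove the DOX-dependent activator in both. A DOX day of 3 was given for WT-SOX9 replicate 1 only, while the peak names of the SOX9+AFOS list recorded 3 days of DOX. Per the study's methods wild-type SOX9 was introduced by lentivirus, whereas AFOS was introduced by lentivirus into cells that carried a Sox9 transgene, with puromycin selection in both cases. The origin of SOX9 may therefore differ between the lists, and this cannot be told apart from the effect of AFOS. The peak names of the SOX9+AFOS list also recorded fragments as the input of the peak caller and those of the WT-SOX9 list did not.

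SOX9 is an HMG-box transcription factor that specifies hair follicle fate and acts as a pioneer factor, which means that it can bind its motif in closed chromatin. AP1 is a dimer of JUN with FOS or a related basic leucine zipper protein that binds a 7-bp palindrome and is abundant at the enhancers of keratinocytes. AFOS is a dominant-negative FOS whose basic region was replaced by an acidic one, so that it pairs with JUN proteins and keeps them off DNA. ATAC-seq marks open chromatin through the insertion of adapters by the Tn5 transposase.

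One pooled list stood for each group, so no spread between replicates could be had, no comparison below carries a test, and every interval is a 95% Wilson interval that covers counting error only. A region absent from a list had no peak past the authors' score threshold there, which does not show that it was closed. The basal keratinocyte markers Krt5, Krt14, Trp63, Itga6, Itgb4 and Col17a1 each had a peak within 1 kb of a start in both lists. The immune markers Ptprc, Cd3e, Lyz2 and Itgam and the endothelial markers Pecam1 and Cdh5 had none in either. Of the other markers looked at, Col1a1 and Pdgfra (fibroblasts), Kdr (endothelium), Mitf and Pmel (melanocytes) had one in both lists, Dct (melanocytes) in the SOX9+AFOS list only and Col1a2, Dpt and Tyrp1 in neither, and the part of such cells in the results was not tested.

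The genes carried by the constructs were examined next, since a spliced coding sequence gives peaks that keep to exons. The WT-SOX9 list had 1 peak of 3425 bp (score 21.2) over the Sox9 gene. The SOX9+AFOS list had 3 there, with scores of 13.3, 4.61 and 5.11, the last lying wholly within exon 3, and the noDOX list of uninduced cells also had a peak within that exon (3.71). No list had such a peak in a Fos exon past the first, so AFOS itself could not be checked. The SOX9+AFOS list also had 5 peaks with at least 80% of their length in an exon of Arid1a past the first, with scores of 3.43 to 7.86, against 0 in the WT-SOX9 list. The SOX9+ARID1a list had 4 such peaks (5.89 to 21.9) and the AFOS list 4 (3.21 to 8.69). The noDOX, dHMG-SOX9 and dTA-SOX9 lists had 1 each, all in exon 20, the last, with scores of 4.81, 5.43 and 7.47. Arid1a, a subunit of the SWI/SNF remodeller, is no part of the label of the SOX9+AFOS samples, and the source of these peaks was not tested. As both replicates were pooled, no result could be given for either replicate alone.

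Stretches of sequence show what the classes hold. Of the regions of the WT-SOX9 list only, the 3 highest-scoring with both an AP1 match and a SOX match in their central 200 bp are given first, on the plus strand of GRCm38. Capitals mark the AP1 match TGAGTCA or TGACTCA and the SOX match ACAATGG or ACAATAG, each on either strand.
Ppm1h region, chr10:122630227-122630426: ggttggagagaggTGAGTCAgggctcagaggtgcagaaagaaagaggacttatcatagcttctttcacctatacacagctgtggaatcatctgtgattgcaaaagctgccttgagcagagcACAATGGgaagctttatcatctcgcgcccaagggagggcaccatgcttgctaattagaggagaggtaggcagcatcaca
Pphln1 region, chr15:93479628-93479827: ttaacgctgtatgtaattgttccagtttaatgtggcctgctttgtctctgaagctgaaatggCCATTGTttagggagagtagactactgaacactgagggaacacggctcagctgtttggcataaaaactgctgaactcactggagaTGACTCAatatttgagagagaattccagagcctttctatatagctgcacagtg
Agbl1 region, chr7:76408268-76408467: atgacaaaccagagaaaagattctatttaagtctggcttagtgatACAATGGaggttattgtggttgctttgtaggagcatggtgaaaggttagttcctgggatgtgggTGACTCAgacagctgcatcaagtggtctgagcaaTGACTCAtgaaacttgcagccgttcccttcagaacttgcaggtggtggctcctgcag

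The Ppm1h region was intergenic, 48451 bp from the nearest start of a coding gene, and had a score of 51.1. The Pphln1 region (score 46.6) and the Agbl1 region (41.9) were intronic. The Ppm1h and Pphln1 regions had no peak in the noDOX, AFOS, dHMG-SOX9 or dTA-SOX9 lists and had one in the SOX9+ARID1a list, whereas the Agbl1 region had peaks in AFOS, dHMG-SOX9 and dTA-SOX9 and none in noDOX or SOX9+ARID1a. Both motifs were found together in 396 of the WT-SOX9-only and 45 of the SOX9+AFOS-only regions. The 3 highest-scoring regions of the SOX9+AFOS list only, chosen by score alone, held no match to either motif and are printed next.
Aff1 region, chr5:103838698-103838897: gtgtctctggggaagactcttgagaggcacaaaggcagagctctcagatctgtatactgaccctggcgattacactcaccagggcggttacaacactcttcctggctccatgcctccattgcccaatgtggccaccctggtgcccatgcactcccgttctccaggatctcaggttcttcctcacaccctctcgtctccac
Spns3 region, chr11:72506656-72506855: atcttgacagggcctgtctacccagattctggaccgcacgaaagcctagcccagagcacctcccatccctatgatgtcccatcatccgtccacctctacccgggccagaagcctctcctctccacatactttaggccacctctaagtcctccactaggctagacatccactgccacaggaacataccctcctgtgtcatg
Grtp1 region, chr8:13208905-13209104: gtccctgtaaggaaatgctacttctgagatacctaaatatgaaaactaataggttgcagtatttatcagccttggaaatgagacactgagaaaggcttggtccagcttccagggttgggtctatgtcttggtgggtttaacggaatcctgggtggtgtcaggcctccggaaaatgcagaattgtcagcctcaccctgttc

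The 3 highest-scoring regions of the WT-SOX9 list only, chosen in the same way, also held no match in this window.
Slc1a3 region, chr15:8821991-8822190: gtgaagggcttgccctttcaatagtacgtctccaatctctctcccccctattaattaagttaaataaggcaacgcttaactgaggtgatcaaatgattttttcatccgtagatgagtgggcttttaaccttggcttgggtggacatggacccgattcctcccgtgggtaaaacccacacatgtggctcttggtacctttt
Celsr1 region, chr15:85966101-85966300: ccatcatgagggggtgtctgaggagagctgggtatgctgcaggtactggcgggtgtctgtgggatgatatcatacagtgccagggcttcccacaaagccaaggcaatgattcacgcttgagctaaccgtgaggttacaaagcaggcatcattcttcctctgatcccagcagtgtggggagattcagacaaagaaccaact
Etv6 region, chr6:134206115-134206314: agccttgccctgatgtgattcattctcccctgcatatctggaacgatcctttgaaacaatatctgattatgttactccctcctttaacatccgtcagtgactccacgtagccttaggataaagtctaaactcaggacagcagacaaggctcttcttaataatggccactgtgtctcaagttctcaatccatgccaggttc

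A substantial minority of the regions of either list had no peak in the other. The regions of the WT-SOX9 list only were 32.1% (31.7 to 32.5%) of that list and 25.6% of all merged regions. Those of the SOX9+AFOS list only were 27.1% (26.7 to 27.5%) of their list and 20.1% of all merged regions. Regions of both lists made up 54.2% (53.8 to 54.6%). The one-list regions were short, with median widths of 406 bp (WT-SOX9 only) and 383 bp (SOX9+AFOS only) against 716 bp for regions of both. Where 1 peak of each list met, as in 34500 regions, the median widths were 616 bp for WT-SOX9 and 607 bp for SOX9+AFOS.

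One-list regions came mostly from weak peaks. Scores run up to 1659 in the WT-SOX9 list and 236 in the SOX9+AFOS list, so peaks were ranked within their list as percentiles. The median rank of the WT-SOX9-only regions was the 27.5th percentile, and that of the SOX9+AFOS-only regions the 25.4th. Regions of both lists had a median percentile rank of 63 in WT-SOX9 and 61.3 in SOX9+AFOS. The share of WT-SOX9 regions without a SOX9+AFOS peak was 64.6% (63.3 to 65.9%) in the lowest decile of scores and 0.842% (0.628 to 1.13%) in the highest. For SOX9+AFOS regions without a WT-SOX9 peak it was 59.9% (58.5 to 61.3%) and 1.32% (1.03 to 1.68%). The plot of absence against score shows both declines.

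**Figure D1:**
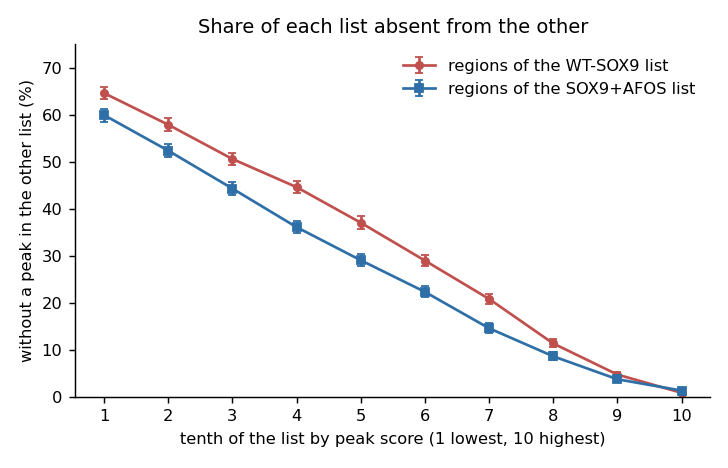
Share of the regions of each list without a peak in the other list (y axis, percent, from 0), by decile of the list's own peak scores (x axis, lowest to highest), with circles for WT-SOX9, squares for SOX9+AFOS and bars for 95% Wilson intervals. The WT-SOX9 share declines from 64.6% to 0.842% and the SOX9+AFOS share from 59.9% to 1.32%.

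Both kinds of one-list region lay away from promoters. Within 1 kb of an annotated transcription start site (TSS) lay 8.34% (7.93 to 8.76%) of the WT-SOX9-only regions, 7.10% (6.67 to 7.55%) of the SOX9+AFOS-only regions and 33.0% (32.5 to 33.5%) of those of both lists. The median distance to a TSS was 15518 bp for WT-SOX9 only, 11298 bp for SOX9+AFOS only and 5912 bp for both. Introns held 53.6% of the WT-SOX9-only and 52.9% of the SOX9+AFOS-only regions, and 39.6% and 41.3% were intergenic. Which one-list class had the larger share near a TSS depended on the settings, since within 5 kb the WT-SOX9-only share was 23.5% and the SOX9+AFOS-only share 27.1%. The classes parted far from a TSS. Of WT-SOX9 regions, 10.7% (10.2 to 11.2%) had no SOX9+AFOS peak within 1 kb of a TSS, 33.5% at 1 to 5 kb, 36.0% at 5 to 20 kb, 41.3% at 20 to 50 kb and 53.1% (51.8 to 54.5%) beyond 50 kb. The share of SOX9+AFOS regions without a WT-SOX9 peak was 7.4% (6.95 to 7.87%) within 1 kb and then stayed between 32.6% and 34.3% in the other 4 distance classes.

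The AP1 motif set the one-list classes apart most. A match lay in the central 200 bp of 26.2% (25.6 to 26.9%) of WT-SOX9-only regions and of 6.54% (6.13 to 6.97%) of SOX9+AFOS-only regions. Regions of both lists were between them at 14% (13.6 to 14.3%), and all merged regions stood at 15.6%. The order between the one-list classes held beyond 1 kb of a TSS, where the shares were 27.3% (26.6 to 28%) and 6.70% (6.27 to 7.16%), and within 1 kb, where they were 14.1% (12.4 to 16.0%) and 4.39% (3.25 to 5.90%). It held on each of the 20 chromosomes, with 23.5 to 30.2% of WT-SOX9-only regions and 4.95 to 11.9% of SOX9+AFOS-only regions.

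SOX matches were also most frequent in the WT-SOX9-only regions. They were found in 12.5% (12 to 13%) of WT-SOX9-only regions, 5.53% (5.16 to 5.94%) of SOX9+AFOS-only regions and 5.44% (5.21 to 5.69%) of regions of both lists, with 7.27% over all, so that the last 2 classes overlapped in their intervals. Within 1 kb of a TSS the intervals of the one-list classes overlapped too (4.95 to 7.47% and 3.34 to 6.02%). Matches to AGATAA, the core read by GATA factors, were found in 11.4% (10.9 to 11.9%), 9.02% (8.54 to 9.52%) and 6.83% (6.57 to 7.10%). Matches to TGTGGT, the core read by RUNX factors, were found in 18.3% (17.7 to 18.9%), 19.6% (19 to 20.3%) and 14.9% (14.5 to 15.3%). Matches to TGACGTCA, the CRE read by CREB and ATF factors, were rare at 0.531% (0.432 to 0.653%), 0.190% (0.129 to 0.280%) and 0.737% (0.653 to 0.831%). AGGTGTGA, read by T-box factors, was in 1.07% (0.929 to 1.24%), 1.55% (1.35 to 1.78%) and 1.02% (0.920 to 1.13%).

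The RUNX and T-box words were thus slightly more frequent in SOX9+AFOS-only than in WT-SOX9-only regions, and the TEAD word was more so. GGAATG, the core of the sites of TEAD factors, the DNA-binding partners of YAP and TAZ, lay in 24.6% (23.8 to 25.3%) of SOX9+AFOS-only regions against 14.7% (14.2 to 15.2%) of WT-SOX9-only regions and 14.9% (14.6 to 15.3%) of regions of both. The SOX9+AFOS-only share was the higher one on all 20 chromosomes, at 21.4 to 30.1% against 13.1 to 16.0%.

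**Figure D2:**
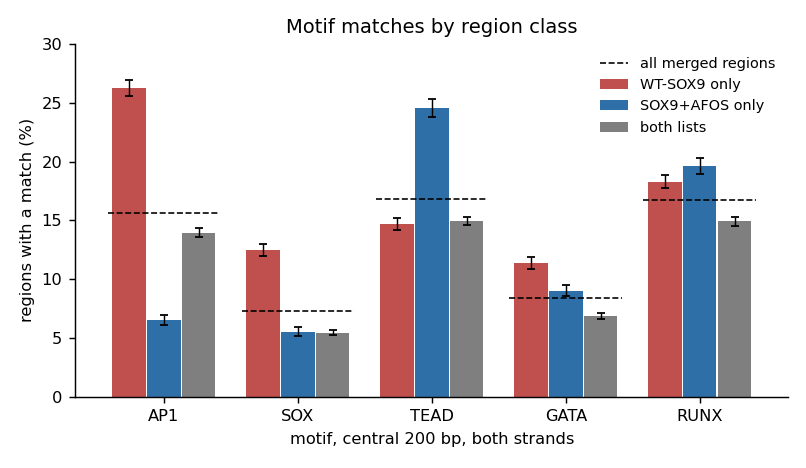
Percent of regions (y axis, from 0) with a match to 5 motifs in the central 200 bp on either strand (x axis), with bars for the 3 region classes, error bars for 95% Wilson intervals and dashed lines for all merged regions. AP1 and SOX matches are most frequent in WT-SOX9-only regions (26.2% and 12.5%) and TEAD matches in SOX9+AFOS-only regions (24.6%).

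Base composition moved with the classes, and was set beside the motifs. The median GC content of the central 200 bp was 45.5% in WT-SOX9-only regions, 49.5% in SOX9+AFOS-only regions and 52.5% in regions of both. All regions were divided into GC quartiles at 44.5%, 50% and 56% GC. The AP1 share of WT-SOX9-only regions was 22.9%, 30.4%, 33.7% and 14% from the lowest to the highest quartile, and that of SOX9+AFOS-only regions 7.88%, 6.89%, 6.23% and 4.01%. The SOX shares were 16.7%, 11.6%, 7.81% and 3.51% against 7.95%, 6.14%, 4.08% and 3.29%. The SOX difference was thus within counting error in the quartile richest in GC (2.69 to 4.57% against 2.54 to 4.26%), and the AP1 difference was not in any quartile. The TEAD shares were 15.0%, 16.7%, 13.9% and 8.03% in WT-SOX9-only regions against 26.7%, 26.4%, 22.7% and 20.4%. GATA shares were 16.1%, 9.61%, 6.91% and 2.16% against 14.1%, 10.3%, 6.33% and 3.29%. Their order changed between quartiles and their intervals overlapped in each. RUNX shares were 18.3%, 20.1%, 19.3% and 10.4% against 19.8%, 21.2%, 19.4% and 15.8%, with intervals apart in the highest quartile only.

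Matches piled up at the centres. In bins of 40 bp, AP1 matches were in 7.34% of WT-SOX9-only regions at the central bin and in 0.519 to 0.573% at the bins 480 bp away. The central bin held a match in 3.6% of the regions of both lists and 1.51% of the SOX9+AFOS-only regions. SOX matches reached 3.02% of WT-SOX9-only regions in the bin 40 bp from the centre and 0.926 to 0.967% at 480 bp, whereas those of the SOX9+AFOS-only regions stood at 1.28% and at 0.730 to 0.829% in the same bins.

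**Figure D3:**
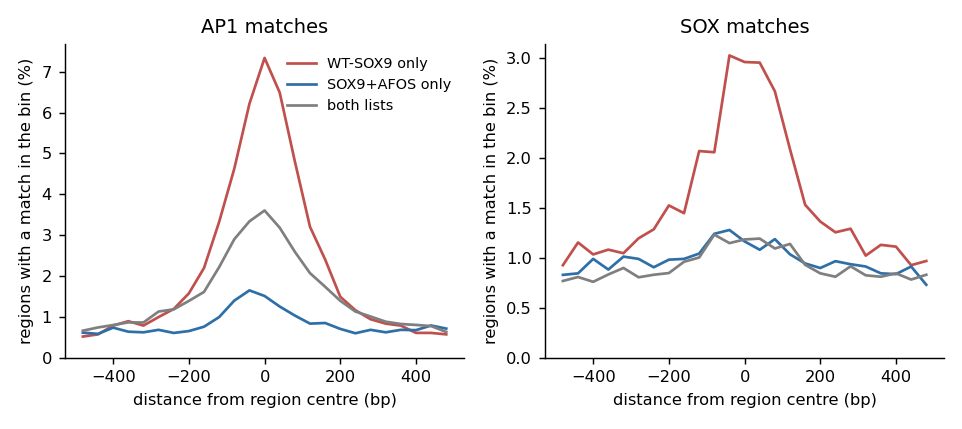
Percent of regions with an AP1 (left) or SOX (right) match in each 40-bp bin (y axes, from 0 and of different range) by distance from the region's centre (x axes, bp), one line per region class. The AP1 line of the WT-SOX9-only regions has its top at the centre (7.34%), and the SOX line of the SOX9+AFOS-only regions stays between 0.730% and 1.28%.

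Counting matches gave the same picture from the side of the lists. WT-SOX9 regions without an AP1 match had no SOX9+AFOS peak in 28.8% (28.4 to 29.3%) of cases, those with 1 match in 46.7% (45.6 to 47.8%) and those with 2 in 50.5% (47.3 to 53.6%). With 3 or more the share was 41.3% (30.0 to 53.6%) of 63 regions. In the SOX9+AFOS list the share without a WT-SOX9 peak was 28.7% (28.3 to 29.2%) with no AP1 match, 15.9% (14.9 to 16.9%) with 1, 4.76% (3.22 to 6.99%) with 2 and 0 of 37 regions with 3 or more, which allows up to 9.41%. Of 257 WT-SOX9 regions with at least 2 SOX matches 59.9% (53.8 to 65.7%) had no SOX9+AFOS peak, of those with 1 match 51.5% (49.9 to 53.1%) and of those with none 30.4% (30.0 to 30.8%). WT-SOX9 regions with both an AP1 and a SOX match were absent from SOX9+AFOS in 60.2% (56.4 to 63.9%) of 658 cases, those with AP1 alone in 46.0% (45.0 to 47.1%), those with SOX alone in 50.4% (48.7 to 52.1%) and those with neither in 27.0% (26.6 to 27.4%). Where both were present the nearest matches lay a median of 56 bp apart in WT-SOX9-only regions and 57 bp in regions of both.

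The relation with AP1 was present at each level of score. In the lowest score quartile of the WT-SOX9 list, 76.4% (74.7 to 78.0%) of regions with an AP1 match and 55.3% (54.4 to 56.3%) of those without had no SOX9+AFOS peak. In the highest quartile the shares were 9.76% (8.43 to 11.3%) and 3.17% (2.87 to 3.51%). In the SOX9+AFOS list the relation was turned around, with 30.2% (28 to 32.5%) and 57.8% (56.9 to 58.8%) in the lowest quartile and 1.12% (0.640 to 1.94%) and 3.65% (3.31 to 4.01%) in the highest. SOX matches went with absence in the WT-SOX9 list too, at 75% (72.5 to 77.4%) against 57.9% (57.0 to 58.8%) in the lowest quartile and 12.1% (9.82 to 14.7%) against 3.57% (3.26 to 3.91%) in the highest. In the SOX9+AFOS list SOX matches had no such uniform relation, at 47.9% (44.3 to 51.4%) with and 54.4% (53.5 to 55.4%) without a match in the lowest quartile and 5.18% (3.59 to 7.43%) and 3.35% (3.04 to 3.69%) in the highest.

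All 8192 words of 7 bases, a word and its reverse complement counted as one, were then compared without regard to known motifs. The median difference in share between the one-list classes was 0.255 percentage points. The word with the largest excess in WT-SOX9-only regions was TGACTCA itself, 19.7 points higher than in SOX9+AFOS-only regions. The next 4 (GAGTCAC at 8.17 points and then ATGACTC at 7.70, followed by ATGAGTC at 7.58 and by GACTCAC at 6.69) were parts of the same palindrome with its neighbours. In the other direction CACACCC, the CACCC box that KLF factors bind, led with 14.7% of SOX9+AFOS-only against 5.48% of WT-SOX9-only regions. After it came CCACACC with 13.1% against 5.03%. ACATTCC, a TEAD site read on the other strand, was in 10.6% against 4.65%, while CCCACCC was in 11.4% against 5.48% and CCCCACC in 10.9% against 5.04%. CACACCC was also the more frequent one in SOX9+AFOS-only regions within each GC quartile, from 10.2% against 3.71% in the lowest to 18.2% against 8.23% in the highest.

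To separate chromatin that was open before induction from chromatin that opened with SOX9, the regions were looked up in the list of cells kept without DOX (noDOX). Of the WT-SOX9-only regions 44.8% (44.0 to 45.5%) had a noDOX peak and 9252 did not. The former carried an AP1 match in 39.8% (38.7 to 40.9%) and a SOX match in 5.88% (5.37 to 6.44%). The latter carried an AP1 match in 15.2% (14.5 to 16.0%) and a SOX match in 17.8% (17.1 to 18.6%). Of the 9252 regions without a noDOX peak, 1142 had a peak in the AFOS list, and these held an AP1 match in 29.1% (26.5 to 31.8%) and a SOX match in 9.28% (7.73 to 11.1%). Of the SOX9+AFOS-only regions 29.7% (28.9 to 30.5%) had a noDOX peak, and of the regions of both 86.4% (86.0 to 86.7%). In SOX9+AFOS-only regions without a noDOX peak AP1 matches were at 3.75% (3.38 to 4.16%) and SOX matches at 6.42% (5.94 to 6.94%). Regions of both without a noDOX peak, 4825 in all, had SOX matches in 14.9% (14 to 16.0%) and AP1 matches in 5.14% (4.55 to 5.80%).

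The same WT-SOX9 regions were followed into the other culture lists. Among the 7680 regions with a peak in both WT-SOX9 and noDOX and an AP1 match, 61.1% (60.1 to 62.2%) had a peak in SOX9+AFOS. The corresponding share was 93.8% (93.3 to 94.3%) in AFOS alone, 93.1% (92.5 to 93.6%) in SOX9+ARID1a, 91.8% (91.2 to 92.4%) in SOX9 without its DNA-binding domain (dHMG-SOX9) and 91.2% (90.6 to 91.8%) in SOX9 without its transactivation domain (dTA-SOX9). The peak names of the AFOS and SOX9+ARID1a lists recorded fragments as input, as those of SOX9+AFOS did. Regions of this kind without an AP1 match had a SOX9+AFOS peak in 85.2% (84.8 to 85.6%) of cases, against 87 to 90.4% in the 4 other lists. With the comparison kept to regions beyond 1 kb of a TSS, the SOX9+AFOS shares were 60.1% (58.9 to 61.2%) with and 79.7% (79.1 to 80.3%) without an AP1 match.

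Of the 14077 WT-SOX9 regions without a noDOX peak, 34.3% (33.5 to 35.1%) had a SOX9+AFOS peak. The share was 39.1% (38.3 to 39.9%) in SOX9+ARID1a, 16.5% (15.9 to 17.1%) in AFOS, 11.4% (10.9 to 11.9%) in dHMG-SOX9 and 11.8% (11.2 to 12.3%) in dTA-SOX9. With a SOX match the shares were 30.4% (28.6 to 32.3%) in SOX9+AFOS, 42.4% (40.4 to 44.4%) in SOX9+ARID1a, 8.06% (7.03 to 9.22%) in AFOS, 4.47% (3.71 to 5.38%) in dHMG-SOX9 and 4.77% (3.98 to 5.70%) in dTA-SOX9. SOX9+AFOS thus lay below SOX9+ARID1a and above the other 3 lists for the regions with a SOX match. With an AP1 match SOX9+AFOS had a peak in 15% (13.3 to 16.8%) of the regions without a noDOX peak, where SOX9+ARID1a had one in 44.2% (41.8 to 46.6%), AFOS in 25.5% (23.5 to 27.7%), dTA-SOX9 in 19.7% (17.8 to 21.7%) and dHMG-SOX9 in 14.2% (12.6 to 15.9%), so that SOX9+AFOS lay below AFOS and dTA-SOX9 there and its interval overlapped that of dHMG-SOX9.

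**Figure D4:**
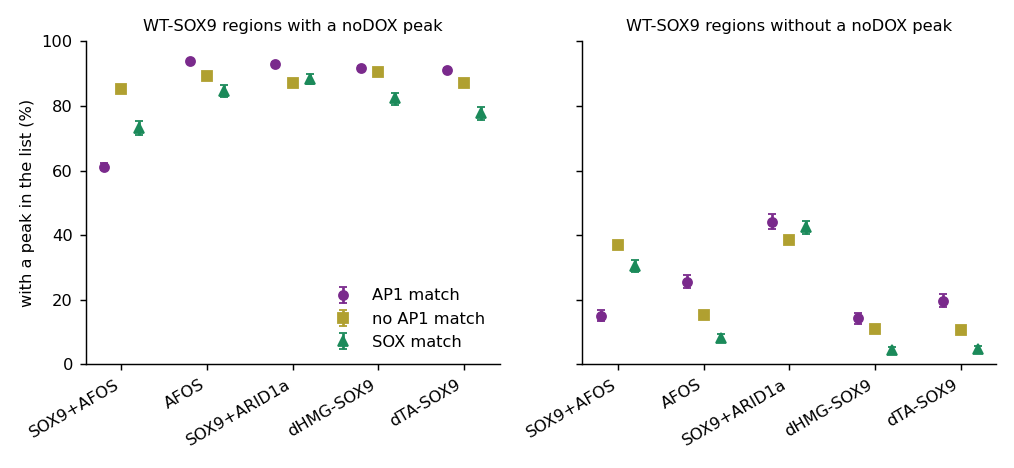
Percent of WT-SOX9 regions with a peak in each of 5 other culture lists (y axis, 0 to 100), for regions with (left) and without (right) a noDOX peak, with circles for an AP1 match, squares for no AP1 match, triangles for a SOX match and bars for 95% Wilson intervals. At the left AP1 regions stand at 61.1% in SOX9+AFOS and at 91.2% or more in the other 4 lists.

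The SOX9+ARID1a list, the other list with SOX9 and fragment input, was used to look at the classes again. It had a peak in 46.1% (45.3 to 46.8%) of WT-SOX9-only regions. Those carried an AP1 match in 39.7% (38.6 to 40.7%), against 14.8% (14 to 15.5%) of the WT-SOX9-only regions that SOX9+ARID1a also lacked, while SOX matches stood at 10.2% (9.52 to 10.9%) and 14.4% (13.7 to 15.2%). Of the SOX9+AFOS-only regions 42.1% (41.2 to 42.9%) had a SOX9+ARID1a peak, more than in noDOX (29.7%), AFOS (29.4%), dHMG-SOX9 (21.8%) or dTA-SOX9 (17.2%). Over all merged regions the lists stood in the same order, at 68.3%, 64.3%, 62.1%, 59.7% and 57.3%. Both the SOX9+AFOS and the SOX9+ARID1a list held the Arid1a exon peaks given above, whose part in the overlap between them was not tested. Merging SOX9+AFOS directly with SOX9+ARID1a in place of WT-SOX9 gave 18912 regions of SOX9+ARID1a only with an AP1 match in 41.1% (40.4 to 41.8%) and 11921 of SOX9+AFOS only with one in 3.02% (2.73 to 3.34%). The SOX shares of that pair were 6.98% (6.62 to 7.35%) and 6.09% (5.67 to 6.53%). The AP1 difference was thus larger against SOX9+ARID1a than against WT-SOX9, and the SOX difference smaller. The AFOS and noDOX lists, for comparison, had AP1 matches in 32.1% (31.4 to 32.8%) of regions of AFOS only and 20.2% (19.4 to 21%) of those of noDOX only, the opposite order to that of the pair with SOX9. Set against AFOS alone, SOX9+AFOS lacked 26571 regions with an AP1 match in 40% (39.5 to 40.6%), and the 15497 regions it held alone had an AP1 match in 4.76% (4.43 to 5.10%) and a SOX match in 9.01% (8.57 to 9.48%). WT-SOX9 and SOX9+ARID1a, a pair without an AFOS label, had SOX matches in 12% of WT-SOX9 only and 5.15% of SOX9+ARID1a only. This SOX difference was close to that between WT-SOX9 and SOX9+AFOS. The same pair had AP1 matches in 11.1% and 30.4% and TEAD matches in 13.3% and 20%. TEAD matches were in 14.6% of noDOX only and 22.1% of AFOS only. They were in 16.9% of SOX9+ARID1a only and 20.6% of SOX9+AFOS only.

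Skin lists came from sorted EpdSCs of mice with K14rtTA and TRE-myc-Sox9, at postnatal day 21 before induction (D0), and at day 28 (W1), 35 (W2) and 63 (W6), 1, 2 and 6 weeks into induction. W12 came instead from neonatal skin grafted onto immunocompromised hosts and induced there, so that it differs from the others by more than time. In these lists the WT-SOX9-only regions with a peak made up 23.6% (22.9 to 24.2%) in D0, 21.9% (21.2 to 22.5%) in W1, 32.7% (32.0 to 33.4%) in W2, 43.1% (42.4 to 43.9%) in W6 and 43.4% (42.7 to 44.2%) in W12. For the SOX9+AFOS-only regions the same lists gave 28.4% (27.7 to 29.2%), 32.0% (31.2 to 32.8%), 30.9% (30.2 to 31.7%), 37.6% (36.8 to 38.4%) and 33.0% (32.2 to 33.8%). The WT-SOX9-only share was the lower one in D0 and W1 and the higher one in the 3 later lists. Over all merged regions the shares were 49.8%, 50.5%, 56.7%, 63.9% and 62.4% in the same order of lists, above those of both one-list classes. The lists differed in length, from 57334 peaks (D0) to 75956 (W6). No peak in any of the other 10 lists was found for 25.8% of WT-SOX9-only, 25.8% of SOX9+AFOS-only and 1.43% of shared regions.

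In the 35428 regions of both lists, scores were related with a Spearman rho of 0.665 across regions, which are not replicates. The median of the differences in rank within a region was 1.22 percentile points lower in SOX9+AFOS, with an interquartile range from 13.8 points lower to 11.1 points higher. A rank more than 25 points higher in SOX9+AFOS was seen in 4246 regions (12%) and more than 25 points lower in 4686 (13.2%). The AP1, SOX and TEAD shares of these tails stood in the same order as those of the one-list classes. GATA shares were about equal, at 8.94% of regions ranked lower and 8.88% of those ranked higher. AP1 matches were in 26.7% (25.5 to 28%) of regions ranked lower and 9.49% (8.65 to 10.4%) of those ranked higher, and SOX matches in 9.30% (8.51 to 10.2%) and 5.96% (5.29 to 6.71%). TEAD matches were in 14.9% (13.9 to 15.9%) of regions ranked lower and 23.8% (22.6 to 25.1%) of those ranked higher.

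The 10 highest-scoring WT-SOX9-only regions had scores of 61.1 to 94.1 and lay between the 95th and the 98.7th percentile of their list. First was a region 111327 bp from the start of Slc1a3, a glutamate transporter, at chr15:8821265-8822916, which also had peaks in noDOX, dHMG-SOX9 and dTA-SOX9 and none in AFOS, SOX9+ARID1a or the skin lists. Introns of Celsr1, a cadherin of planar cell polarity (81.5), of Etv6, an ETS-family repressor (76.1), and of Mical3, an actin-oxidizing enzyme (72), held regions with a peak in all 5 other culture lists too. A region in an intron of Cyfip2, a subunit of the actin-regulating WAVE complex (75.7), one 117739 bp from Sox2, an HMG-box factor of stem cells (66.4), with a SOX match, one 34107 bp from the claudin gene Cldn24 (62.9), one in an intron of the chromatin remodeller gene Chd6 (62.1) and one 112936 bp from the neural adhesion gene Chl1 (61.1) with 2 AP1 matches had no peak in noDOX, AFOS, dHMG-SOX9 or dTA-SOX9 and had one in SOX9+ARID1a. The last was a region in an Rnf217 intron (63.1) with 1 AP1 match, found in dTA-SOX9 and SOX9+ARID1a.

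Among the 10 highest-scoring SOX9+AFOS-only regions, with scores of 68.7 to 116, none held an AP1 or SOX match, and all 10 had a peak in SOX9+ARID1a. Neither motif was found in 88.3% of all SOX9+AFOS-only regions and 78.2% of all merged regions. Of the WT-SOX9-only regions named above, all but the Slc1a3 region had a SOX9+ARID1a peak too. The highest-scoring SOX9+AFOS-only region lay in an intron of Aff1, a scaffold of the super elongation complex, at chr5:103838314-103839281 (116). It was present in noDOX and AFOS but not in dHMG-SOX9 or dTA-SOX9. Next came regions in a Spns3 intron (88.9), 8385 bp from Grtp1 (86.4), and 192897 bp from Dio2, a thyroid hormone deiodinase (77.7). Introns of Tns3, a tensin of focal adhesions (77.5), of the kinase gene Map3k20 (73.5), of Fras1, an extracellular matrix protein of the epidermal basement membrane (69.8), and of Tgfbr3, the TGF-beta coreceptor betaglycan (68.7), followed. The remaining regions lay 3346 bp from Zdhhc25 (73.0) and 24201 bp from Kcne2 (68.8). Of the 100 highest-scoring regions of each class, 37 of the WT-SOX9-only and 1 of the SOX9+AFOS-only regions had an AP1 match, 14 and 7 had a SOX match, and 88 and 90 had a peak in SOX9+ARID1a. Over all merged regions the shares were 15.6% (AP1), 7.27% (SOX) and 68.3% (SOX9+ARID1a peak).

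Shared regions with the largest difference in rank went from near the top of one list to its bottom in the other. In an intron of Myo5b, a myosin of vesicle transport, the score was 66.5 in WT-SOX9 and 3.13 in SOX9+AFOS, 94.4 percentile points lower. Regions 135871 bp from Rorb (56.8 and 3.05), 46696 bp from Trabd2b (49.6 and 3.05), in a Pcnx intron (75.4 and 3.5) and in a Creb3l2 intron (44 and 3.14) followed, the Trabd2b and Creb3l2 regions with 1 AP1 match each. In the opposite direction a region in an intron of Sulf2, a heparan sulfate endosulfatase, had a score of 3.04 in WT-SOX9 and 64.7 in SOX9+AFOS, 95.4 points higher. Other large differences in this direction lay in an exon of Wfdc1 (3.35 and 69.9), in a Krba1 intron (3.01 and 46.4) and 12417 bp from Irf2bpl (3.07 and 49.8), none with an AP1 or SOX match.

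Regions were then counted by gene, from 10 kb before to 10 kb after the annotated gene. Gene lists are read against the 25.6% of all regions that were WT-SOX9 only and the 20.1% that were SOX9+AFOS only, and no list was tested. Shared regions ranked more than 25 points apart are read against 12% ranked higher and 13.2% ranked lower over all shared regions. The transcription start sites themselves were mostly shared, as 11316 of 21728 protein-coding genes (52.1%) had a shared region within 1 kb of a start, 981 (4.51%) a WT-SOX9-only region and 594 (2.73%) a SOX9+AFOS-only region.

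The genes of hedgehog signalling, through which skin cells receive the SHH signal in hair follicle growth and in basal cell carcinoma, had 23 WT-SOX9-only (32.4%, 22.7 to 43.9%) and 10 SOX9+AFOS-only regions (14.1%, 7.83 to 24%) of 71. Gli3, a zinc-finger effector of the pathway, supplied 11 of the former and none of the latter, with scores up to 21. All 3 shared Gli3 regions were ranked more than 25 points lower in SOX9+AFOS. Gli2, the main activating effector and also counted among the hair follicle genes, had 4 and 5 one-list regions, and 4 of its 8 shared regions were ranked lower by the same measure. Sufu, which holds GLI proteins back, had 3 and 2, and the coreceptor gene Boc 1 and 2.

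The cadherin and mesenchymal genes had 21 WT-SOX9-only (33.9%, 23.3 to 46.3%) and 8 SOX9+AFOS-only regions (12.9%, 6.69 to 23.4%) of 62. Cdh2, which codes for N-cadherin, had 8 WT-SOX9-only regions, all intronic with scores up to 29.3, no SOX9+AFOS-only region and 1 shared region at its start (19.7 in WT-SOX9 and 4.33 in SOX9+AFOS). Of those 8, 3 had a noDOX peak. Cdh1, which codes for E-cadherin, had 2 of each kind beside 9 shared regions. Zeb2, a zinc-finger repressor of epithelial genes, had 3 WT-SOX9-only regions. Tnc, an extracellular matrix glycoprotein, had 4 SOX9+AFOS-only regions and 1 WT-SOX9-only region, and Vim, the intermediate filament gene of mesenchymal cells, 1 SOX9+AFOS-only region of score 13.9.

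The AP1 target genes, a list of genes with AP1-driven enhancers or promoters, had 24 WT-SOX9-only (22.6%, 15.7 to 31.5%) and 13 SOX9+AFOS-only regions (12.3%, 7.31 to 19.9%) of 106, close to the first background share and with the second below it. The adhesion receptor gene Cd44 had 6 and 3, Ets1, an ETS-family factor, 5 and 0, and Mmp9, a gelatinase, 2 and 2. The genes of the AP1 subunits and their partners had 10 (15.9%, 8.86 to 26.8%) and 12 (19%, 11.2 to 30.4%) of 63. Jdp2 and Junb had 3 SOX9+AFOS-only regions each and no WT-SOX9-only region, whereas Atf2 and Batf2 had 2 WT-SOX9-only regions each and no SOX9+AFOS-only region.

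Integrin and basement membrane genes, which anchor basal cells, had 39 WT-SOX9-only (25%, 18.9 to 32.3%) and 24 SOX9+AFOS-only regions (15.4%, 10.6 to 21.9%) of 156. Dst, the hemidesmosomal plakin, had 10 and 4, Lama3 7 and 1, Itgb6 4 and 3 and Itga6 2 and 4. TGF-beta and BMP genes had 30 (27%, 19.6 to 36%) and 23 (20.7%, 14.2 to 29.2%) of 111. Ltbp1, which binds latent TGF-beta, had 9 and 0, the BMP receptor gene Bmpr1a 7 and 2, Smad3 4 and 3 and the ligand gene Tgfb2 2 and 5. Desmosome and tight junction genes had 24 of each (17.8%, 12.2 to 25.1%) of 135, with 4 and 6 at Tjp1, 4 and 1 at Dsc3 and 4 and 0 at Dsg2.

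The keratin genes had 2 WT-SOX9-only (4.17%, 1.15 to 14%) and 6 SOX9+AFOS-only regions (12.5%, 5.86 to 24.7%) of 48. Krt5 and Krt14 code for the keratin pair of basal cells. Krt5 had 2 SOX9+AFOS-only regions, with scores of 16.5 and 6.49, and none of WT-SOX9 only. Krt14 had 1 WT-SOX9-only region of score 3.65, and 3 of its 6 shared regions were ranked more than 25 points higher in SOX9+AFOS, the largest from 6.76 in WT-SOX9 to 47.1 in SOX9+AFOS. Of the 8 shared Krt5 regions 1 was ranked higher by the same measure (4.67 in WT-SOX9 and 24.5 in SOX9+AFOS) and 1 lower (7.13 and 3.19). Krt17 had 1 SOX9+AFOS-only region (14.4), and 2 of its 4 shared regions were ranked lower (55 and 12.1, and 25.3 and 8.76). Krt18 had 1 region of each kind. The epidermal transcription factor genes had 11 (11.2%, 6.38 to 19%) and 19 (19.4%, 12.8 to 28.3%) of 98. Grhl3, a factor of barrier formation, had 1 and 4, Trp63, the p63 gene of stratified epithelia, 2 and 3, Grhl2 2 and 2 and Gata3 2 and 0. At the start of the shorter Trp63 isoforms, in the intron of the long ones, the score was 4.62 in WT-SOX9 and 19.9 in SOX9+AFOS. Of the 8 shared Trp63 regions 3 were ranked more than 25 points higher and 2 lower, the largest difference being that of an intergenic region with scores of 33.2 in WT-SOX9 and 3.18 in SOX9+AFOS.

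The EGF receptor list, which holds growth factor and receptor genes of keratinocytes, had 12 WT-SOX9-only (12.6%, 7.38 to 20.8%) and 21 SOX9+AFOS-only regions (22.1%, 14.9 to 31.4%) of 95. The neuregulin gene Nrg1 had 9 and 6, Egfr 1 and 5, Erbb2 0 and 3 and the ligand gene Epgn 0 and 2. Of the 15 shared Egfr regions 4 were ranked more than 25 points higher in SOX9+AFOS, one of them from a score of 3.91 in WT-SOX9 to 69.8, and 1 was ranked lower (46 and 12.8). The hair follicle stem cell factor genes had 22 (16.8%, 11.4 to 24.1%) and 25 (19.1%, 13.3 to 26.7%) of 131. Nfatc1 had 2 and 4, Tcf7l2 3 and 3, Nfib 3 and 2, Runx1 1 and 4, and Sox9 a single shared region, which the construct may feed. The WNT list had 13 (19.1%, 11.5 to 30.0%) and 15 (22.1%, 13.8 to 33.3%) of 68, with 1 and 5 at Wnt7b, 1 and 3 at Wnt4, 4 and 1 at Lgr6 and 2 and 0 at Dkk3. The cornified envelope list had 8 (25%, 13.3 to 42.1%) and 9 (28.1%, 15.6 to 45.4%) of 32, with 4 and 0 at Tgm3, the transglutaminase of terminal differentiation, 0 and 3 at Cnfn, 2 and 0 at Ivl and 0 and 2 at Rptn.

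Over all protein-coding genes, 4999 had more WT-SOX9-only than SOX9+AFOS-only regions and 4466 had fewer, and 2878 had both kinds. The largest excess of WT-SOX9-only regions was at the long genes Pde4d, a cAMP phosphodiesterase (27 against 1), Ntm, a neural adhesion molecule (20 against 0), Macrod2 (23 against 4), Exoc4, an exocyst subunit (16 against 0), and Prkg1, a cGMP-dependent kinase (19 against 3). The largest excess of SOX9+AFOS-only regions was at Gm20388, an annotation across 299 regions of many genes (76 against 41). It was followed by Lpp, a LIM protein of adhesion sites (15 against 4), Tgfbr3 (10 against 0), 2900026A02Rik (9 against 0) and Drc1 (9 against 0). Hunk on chromosome 16 (10 against 1) and Sorcs2 on chromosome 5 (12 against 3) tied with 2900026A02Rik and Drc1. Tgfbr3, 2900026A02Rik and Drc1 also lie on chromosome 5.

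Chromosomes differed in how the one-list regions were divided. On chromosome 5 15.8% of merged regions were WT-SOX9 only and 29.7% SOX9+AFOS only. On chromosome 13 the shares were 36.5% and 14.4%, on chromosome 6 35% and 14.6%, on chromosome 18 33.2% and 16.8%, and on chromosome 16 20.8% and 26.5%. At shared regions within 1 kb of a TSS the median ratio of the SOX9+AFOS to the WT-SOX9 score was 1.22 on chromosome 5, against 0.625 on chromosome 13, 0.720 on chromosome 6 and 0.783 on chromosome 18. Chromosome 5 held 7.31% of SOX9+AFOS and 7.13% of SOX9+ARID1a peaks, 6.35% of noDOX peaks, 5.70% of WT-SOX9 peaks and 5.32% of AFOS peaks. The counts at single genes, such as those of Gli3 and Pde4d on chromosome 13, Cdh2 on chromosome 18 and Tgfbr3 on chromosome 5, move with these chromosome-wide differences, and the part of the latter in the former was not tested.

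**Figure D5:**
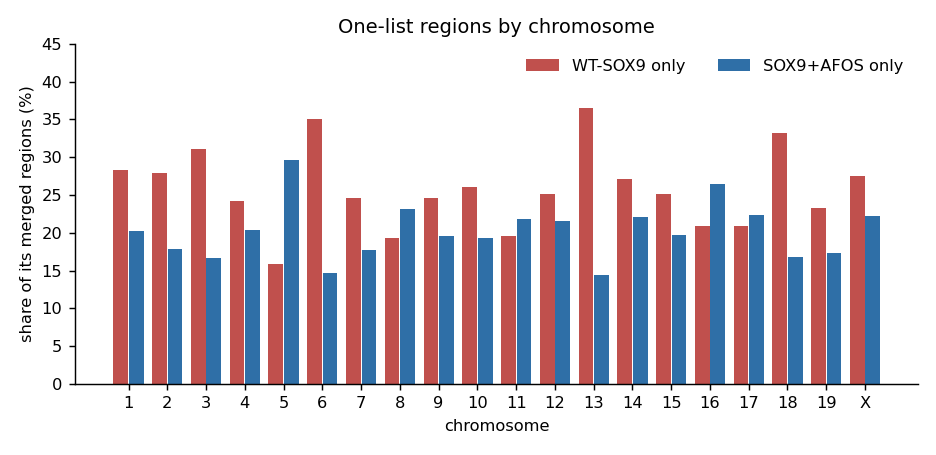
Percent of the merged regions of each chromosome (x axis) that were of the WT-SOX9 list only or of the SOX9+AFOS list only (y axis, from 0). Chromosome 5 has the lowest WT-SOX9-only share (15.8%) and the highest SOX9+AFOS-only share (29.7%), and chromosome 13 the reverse (36.5% and 14.4%).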

How the data were processed

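Reads of paired-end ATAC-seq libraries had been aligned by the authors to GRCm38 (mm10) with the PEPATAC pipeline, who then merged the replicates of a group, called peaks with MACS2 keeping duplicates and removed peaks under a normalized score of 3. The submitters' processing notes name Bowtie2 2.2.9, SAMtools 1.9, Picard 2.3.0, MACS2 2.1.1 and deepTools 2.5.4. The score deposited by the authors was used for ranks within a list. Read depth is unknown.

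Regions were annotated by their centre with GENCODE M21, and sequence was read from the GRCm38 genome with samtools 1.23.1. Scripts ran in Python 3.11.15 with pandas 2.3.3 and scipy 1.17.1, and merging and matching were tested on simulated lists. Named were the 10 highest-scoring regions of each one-list class, the 5 largest rank differences each way, up to 4 genes per list with most one-list regions, Sox9, Krt5, Krt14, Trp63, Gata3, Runx1 and Vim, the 5 genes of largest excess each way and the 5 leading words each way. The members, lists and motifs were chosen with earlier results of these data known. Some items that this rule names are not reported here. Alternatives were score, list size, overlap, gap, width, window and distance settings and, added after seeing the data, the SOX9+ARID1a list.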

Additional observations from a re-analysis of the deposited data

How the results depend on the processing

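No paired analysis was possible because each group was deposited as 1 pooled peak list. Leaving out a replicate was not possible either. The numbers of regions of WT-SOX9 only, SOX9+AFOS only and both lists stayed within 1.5 times of the reported ones under all alternatives tried, and 51 of the 81 alternative values lay within the counting interval of the reported share or, for numbers of regions, within that factor.

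The AP1 share of WT-SOX9-only regions was above that of SOX9+AFOS-only regions under every alternative. With scores of at least 5 the shares were 27% and 7.03% (both lists 13.1%), with the full region scanned 39.2% and 11.7% (29.5%), and with SOX9+ARID1a in place of WT-SOX9, an alternative chosen after seeing the data, 41.1% and 3.02% (15.3%). For both lists it was 13.5% with a gap of up to 500 bp joined and 15% with peaks set to 500 bp. The SOX shares were 21.2% and 10.9% (both lists 16%) over the full region and 6.98% and 6.09% with SOX9+ARID1a, and 5.16% for both lists with scores of at least 5. Regions of both lists had a median width of 716 bp against 406 and 383 bp for the one-list classes.

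The share within 1 kb of a TSS was 9.33% for WT-SOX9 only and 7.75% for SOX9+AFOS only with scores of at least 5 (both lists 39.5%). With peaks set to 500 bp it was 8.87% and 9.18%, within 5 kb 23.5% and 27.1% (47.2%), and with SOX9+ARID1a 5.09% and 14.9% (29.8%). The order of the one-list classes thus turned under these 3 settings, though only by a small margin with peaks set to 500 bp. The cause was not tested. It was 6.57% for SOX9+AFOS only with gaps joined and 33.7% for both lists with lists of equal size.

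Read depth is unknown, so a peak missing from a list cannot be told from one below the threshold there, and the origin of SOX9, the fragment input, the Arid1a exon peaks and the chromosome-wide differences could not be separated from AFOS.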
